A study of Mus musculus with 12 samples.

Results

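The matrix metalloproteinases (MMPs) and their tissue inhibitors (TIMPs) detected in mouse bone marrow-derived macrophages (BMDMs) were described here through 10 genes, Mmp2, Mmp8, Mmp9, Mmp12, Mmp13, Mmp14, Mmp19, Timp1, Timp2 and Timp3. They were chosen by symbol from the 55335 genes of the expression table, each symbol matched 1 row, and all 10 passed the filter on low values that 12622 genes passed. MMPs are zinc-dependent endopeptidases that are made as inactive precursors and cut collagens, elastin, gelatin and other proteins of the extracellular matrix as well as cytokines and receptors. TIMPs bind the active site of MMPs and block them, so that the balance of both families bears on matrix turnover. Macrophages are a known source of several MMPs, and bacterial lipopolysaccharide (LPS) is a known regulator of their transcripts.

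RNA sequencing had been made of 12 libraries in 4 groups of 3. BMDMs, which are adherent cells grown from bone marrow in medium with macrophage colony-stimulating factor, came from wild-type mice or from mice without Nlrp3, the sensor of the NLRP3 inflammasome (Nlrp3-/-), and were left untreated (control) or given LPS for 4 hours and then ATP for 30 minutes (LPS+ATP), the times stated by the sample labels. The methods give longer times for both agents and C57BL/6 mice aged 8 weeks as the source of BMDMs, the Nlrp3-/- mice carry a loss of the gene in all cells, and sample sizes are described there in general as independent replicates, without saying whether libraries of a group came from separate mice or cultures, so that p-values measure only the spread between these libraries. The design addresses what LPS+ATP changes in macrophages and how far that change differs without Nlrp3.

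Values are FPKM, fragments per kilobase of gene scaled to all mapped fragments of the library, so levels of different genes can be set side by side. FPKM does not give the depth in reads, but its smallest steps gave relative depths between 1.0 and 1.22, of which both ends were wild-type control libraries. FPKM summed to between 283278 and 299393 per library. Nlrp3 itself was absent from the knockout libraries (listed at 0 in 6 of 6), while wild-type libraries held at least 9.24 FPKM. Xist and the Y-linked genes showed that donor sex went with genotype, so genotype and sex cannot be told apart, and Timp1 lies on chromosome X. The methods also name different suppliers for wild-type and Nlrp3-/- mice and mention no littermates, so supplier and genotype cannot be told apart either. All 8 macrophage markers examined, among them Csf1r, Adgre1 and Lyz2, were above 1 FPKM on average in at least 1 group, and 0 of 8 were called between genotypes by the rule used for the tests (6 had an unadjusted p under 0.05 in limma without stimulation and 4 with it). By adjusted p alone 5 were lower in Nlrp3-/- control BMDMs, Cd68 (log2 fold change -0.73) and Csf1r (-0.62) by most, and 4 were lower with LPS+ATP. Of all tested genes, 6.71% and 5.05% were called between genotypes without and with LPS+ATP, and 47.8% and 48.5% passed by adjusted p alone.

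Across the 4 groups the 10 transcripts changed places, which the plot of FPKM by library shows. In wild-type control BMDMs, Mmp8 was highest (mean 264 FPKM), followed by Timp2 (185 FPKM), Mmp12 (135 FPKM), Timp1 (33.5 FPKM), Mmp14 (30.0 FPKM), Mmp13 (25.2 FPKM), Mmp19 (16.3 FPKM), Mmp9 (10.6 FPKM), Mmp2 (5.21 FPKM) and Timp3 (4.70 FPKM). The libraries of Mmp2 and Timp3 overlapped there, while all other neighbours in that order did not. In wild-type BMDMs with LPS+ATP the order became Mmp13, Timp1, Mmp14, Mmp8, Mmp12, Timp2, Timp3, Mmp9, Mmp2 and Mmp19, with overlap between Timp2 and Timp3 and between Mmp9 and Mmp2. Nlrp3-/- control BMDMs had the order Mmp8, Timp2, Timp1, Mmp12, Mmp13, Mmp14, Mmp9, Mmp2, Timp3 and Mmp19, with overlap between Timp2 and Timp1 and between Mmp9 and Mmp2. With LPS+ATP, Nlrp3-/- BMDMs had Mmp13, Timp1, Mmp14, Mmp8 and Mmp12 as their 5 highest members, in the same places as the stimulated wild-type BMDMs, and Timp3 overlapped Mmp2 below them.

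**Figure D1:**
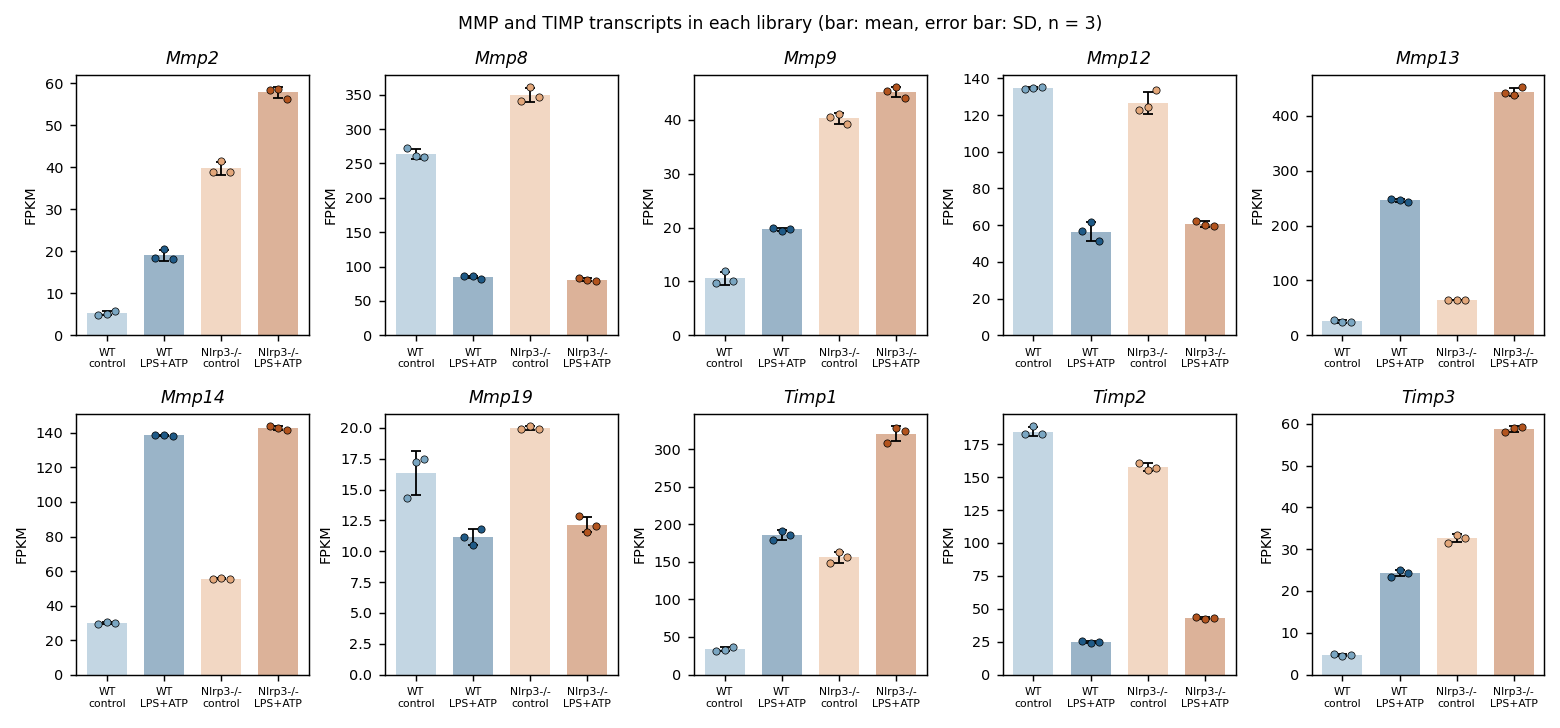
FPKM of the 7 MMP and 3 TIMP genes (y axes, linear, each from 0) in wild-type (WT) and Nlrp3-/- BMDMs without (control) and with LPS+ATP, where points are libraries, bars group means and error bars SD (n = 3). Mmp13, Mmp14 and Timp1 stand higher with LPS+ATP in both genotypes, Mmp8, Mmp12 and Timp2 stand lower, and Mmp2, Mmp9 and Timp3 stand higher in Nlrp3-/- libraries than in wild-type libraries of the same treatment.

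Differences were tested with limma on log2(FPKM + 1), a scale that understates changes of low genes, in 1 fit of the 4 group means over all 12622 genes. A gene was called when its Benjamini-Hochberg adjusted p was under 0.05 and its log2 fold change was at least 1 in size. LPS+ATP changed 8 of the 10 genes in wild-type BMDMs (5 rose and 3 fell) and 6 in Nlrp3-/- BMDMs (3 rose and 3 fell), against 19.4% and 14.8% of all tested genes. By direction, 8.25% of tested genes rose and 11.2% fell in wild-type BMDMs, and 6.64% rose and 8.21% fell in Nlrp3-/- BMDMs. Libraries with and without LPS+ATP did not overlap for any of the 10 genes in either genotype, where 78.1% and 77.4% of tested genes did not overlap. By adjusted p alone all 10 passed in both genotypes, as did 76.4% and 74.3% of tested genes. The median log2 fold change of the 10 genes was 1.27 in wild-type and 0.35 in Nlrp3-/- BMDMs, beside -0.25 and -0.24 over all tested genes. Median-ratio scaling of the libraries moved the median of all tested genes by 0.24 and 0.23 for stimulation and by -0.15 (control) and -0.17 (LPS+ATP) for genotype. Under it 6 of the 10 genes rose and 2 fell in wild-type BMDMs, and 4 rose and 2 fell in Nlrp3-/- BMDMs, while over all genes 1041 rose and 1411 fell in wild-type BMDMs as deposited and 1388 rose and 895 fell after that scaling. In Nlrp3-/- BMDMs 838 rose and 1036 fell as deposited and 1091 rose and 598 fell after it.

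Mmp13, the main interstitial collagenase of mice (ENSMUSG00000050578, protein-coding, chromosome 9 of GRCm38 from 7272514 to 7283331), showed the largest change with LPS+ATP of the 10 genes in both genotypes. It was at 27.4, 24.8 and 23.3 FPKM in the wild-type control libraries and at 248, 247 and 243 FPKM in the wild-type libraries with LPS+ATP. In Nlrp3-/- BMDMs it was at 64.6, 64.3 and 64.1 FPKM in control and at 441, 439 and 453 FPKM with LPS+ATP. All 6 stimulated libraries lay far above all 6 control libraries, and within each treatment the Nlrp3-/- libraries lay above the wild-type ones. The mean rose 9.78-fold in wild-type (log2 fold change 3.24 ± 0.05 SE, adjusted p = 1.57e-13 by limma) and 6.90-fold in Nlrp3-/- BMDMs (log2 fold change 2.77 ± 0.05 SE, adjusted p = 7.21e-13 by limma).

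Mmp14 encodes MT1-MMP, a membrane-anchored collagenase that also activates the precursor of MMP2 (ENSMUSG00000000957, chromosome 14 from 54431612 to 54445364). Its 3 wild-type control libraries held 29.4, 30.5 and 30.0 FPKM, and those with LPS+ATP 139, 139 and 138 FPKM. Nlrp3-/- libraries held 55.1, 56.1 and 55.5 FPKM in control and 144, 143 and 142 FPKM with LPS+ATP. The genotypes were therefore apart without stimulation and within a few FPKM of each other after it. Mmp14 rose 4.63-fold in wild-type (log2 fold change 2.17 ± 0.02 SE, adjusted p = 1.60e-14 by limma) and 2.57-fold in Nlrp3-/- BMDMs (log2 fold change 1.35 ± 0.02 SE, adjusted p = 8.79e-13 by limma).

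Mmp2, the gelatinase that MT1-MMP activates (ENSMUSG00000031740, chromosome 8 from 92827291 to 92853420), was among the lowest of the 10 in wild-type control BMDMs. Its FPKM there was 4.85, 5.06 and 5.72, and it was 18.3, 20.5 and 18.2 with LPS+ATP. In Nlrp3-/- libraries it was 38.8, 41.6 and 38.9 FPKM in control and 58.5, 58.7 and 56.4 FPKM with LPS+ATP. Every Nlrp3-/- library, stimulated or not, exceeded every wild-type library. Mmp2 rose in wild-type BMDMs (log2 fold change 1.69 ± 0.06 SE, adjusted p = 2.79e-10 by limma), and its log2 fold change in Nlrp3-/- BMDMs was 0.53 ± 0.06 (SE, adjusted p = 9.03e-06 by limma), under the fold limit.

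Mmp9, the other gelatinase (ENSMUSG00000017737, chromosome 2 from 164940780 to 164955850), passed the fold limit in neither genotype with LPS+ATP. Wild-type control libraries stood at 9.75, 11.9 and 10.05 FPKM and stimulated ones at 19.8, 19.3 and 19.8 FPKM. Nlrp3-/- libraries stood at 40.5, 41.1 and 39.2 FPKM in control and at 45.3, 46.0 and 44.2 FPKM with LPS+ATP. The log2 fold change was 0.84 ± 0.06 (SE, adjusted p = 1.14e-07 by limma) in wild-type, and 1.14 and called after median-ratio scaling. In Nlrp3-/- BMDMs it was 0.16 ± 0.06 (SE, adjusted p = 0.0258 by limma), the smallest stimulation effect among the 10 genes.

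Mmp8 and Mmp12 moved the other way. Mmp8 encodes neutrophil collagenase (ENSMUSG00000005800, chromosome 9 from 7558456 to 7568485), and in wild-type BMDMs it was at 272, 260 and 259 FPKM in control and at 86.0, 85.9 and 82.5 FPKM with LPS+ATP. In Nlrp3-/- BMDMs it was at 340, 361 and 347 FPKM in control and at 83.8, 80.0 and 78.8 FPKM with LPS+ATP. Control libraries of the genotypes were apart, and stimulated libraries of the genotypes overlapped. The mean fell to 0.322 times the control level in wild-type (log2 fold change -1.62 ± 0.03 SE, adjusted p = 3.82e-12 by limma) and to 0.231 times in Nlrp3-/- BMDMs (log2 fold change -2.10 ± 0.03 SE, adjusted p = 6.28e-13 by limma).

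Mmp12 encodes macrophage elastase (ENSMUSG00000049723, chromosome 9 from 7344381 to 7369499). Wild-type libraries held 134, 135 and 135 FPKM in control and 56.7, 61.4 and 51.4 FPKM with LPS+ATP, and Nlrp3-/- libraries held 122, 124 and 133 FPKM in control and 62.5, 59.9 and 59.6 FPKM with LPS+ATP. All stimulated libraries lay below all control libraries, and the genotypes overlapped after stimulation. Its log2 fold change was -1.24 ± 0.06 (SE, adjusted p = 2.52e-09 by limma) in wild-type and -1.05 ± 0.06 (SE, adjusted p = 1.52e-08 by limma) in Nlrp3-/- BMDMs. Both calls were lost after median-ratio scaling (-0.93 and -0.75), and the second also with TPM (-0.996). Mmp1b overlaps the end of Mmp12 on the opposite strand with at most 0.239 FPKM as a group mean.

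Mmp19, a secreted MMP with basement membrane substrates (ENSMUSG00000025355, chromosome 10 from 128790910 to 128800824), had the narrowest range of group means. Wild-type libraries held 14.3, 17.3 and 17.5 FPKM in control and 11.2, 10.5 and 11.8 FPKM with LPS+ATP, and Nlrp3-/- libraries held 19.9, 20.1 and 19.9 FPKM in control and 12.8, 11.6 and 12.04 FPKM with LPS+ATP. Stimulated libraries lay below control libraries, and the genotypes overlapped after stimulation. The log2 fold changes with LPS+ATP were -0.51 ± 0.07 (SE, adjusted p = 4.73e-05 by limma) in wild-type and -0.67 ± 0.07 (SE, adjusted p = 5.17e-06 by limma) in Nlrp3-/- BMDMs, both under the fold limit. The opposite-strand gene Tmem198b shares exonic sequence with Mmp19 and had group means between 3.18 and 5.81 FPKM, and whether the counting used strand is not given in the sources used here, so reads of both genes cannot be told apart in the shared part.

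The 3 inhibitors went in different directions. Timp1, an inducible inhibitor (ENSMUSG00000001131, chromosome X from 20870166 to 20874735), was at 31.5, 32.5 and 36.4 FPKM in wild-type control libraries and at 179, 192 and 186 FPKM with LPS+ATP. Nlrp3-/- libraries were at 149, 164 and 156 FPKM in control and at 309, 328 and 324 FPKM with LPS+ATP. The 4 groups did not overlap, and Nlrp3-/- control libraries came close to the stimulated wild-type libraries. Timp1 rose 5.54-fold in wild-type (log2 fold change 2.44 ± 0.05 SE, adjusted p = 5.54e-12 by limma) and 2.05-fold in Nlrp3-/- BMDMs (log2 fold change 1.03 ± 0.05 SE, adjusted p = 1.37e-08 by limma). The call in Nlrp3-/- BMDMs was lost without Nlrp3-/- control replicate 1 (0.998). Timp1 lies within Syn1 on the opposite strand, which had group means between 0.799 and 2.99 FPKM.

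Timp2 takes part with MT1-MMP in the activation of MMP2 besides inhibiting it (ENSMUSG00000017466, chromosome 11 from 118301069 to 118355740, minus strand). In wild-type BMDMs it was at 183, 189 and 182 FPKM in control and at 25.6, 24.2 and 25.0 FPKM with LPS+ATP. In Nlrp3-/- BMDMs it was at 161, 155 and 157 FPKM in control and at 43.5, 42.1 and 42.8 FPKM with LPS+ATP. The order of the genotypes turned with stimulation, Nlrp3-/- libraries being below wild-type libraries in control and above them after LPS+ATP. Timp2 fell to 0.135 times its control level in wild-type (log2 fold change -2.84 ± 0.03 SE, adjusted p = 1.20e-14 by limma) and to 0.271 times in Nlrp3-/- BMDMs (log2 fold change -1.86 ± 0.03 SE, adjusted p = 4.23e-13 by limma). Cep295nl overlaps Timp2 on the same strand with group means of at most 0.835 FPKM.

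Timp3 encodes an inhibitor that binds to the matrix and also inhibits ADAM17 (ENSMUSG00000020044, chromosome 10 from 86300372 to 86349506). Wild-type libraries held 4.91, 4.43 and 4.75 FPKM in control and 23.5, 25.0 and 24.4 FPKM with LPS+ATP, and Nlrp3-/- libraries held 31.5, 33.5 and 32.7 FPKM in control and 57.9, 58.9 and 59.3 FPKM with LPS+ATP. Unstimulated Nlrp3-/- libraries exceeded stimulated wild-type libraries. Timp3 rose in wild-type BMDMs (log2 fold change 2.15 ± 0.04 SE, adjusted p = 1.36e-12 by limma). Its log2 fold change in Nlrp3-/- BMDMs was 0.83 ± 0.04 (SE, adjusted p = 6.58e-09 by limma), under the fold limit, and 1.12 and called after median-ratio scaling. Timp3 lies within Syn3 on the opposite strand, which shares 1733 bases with it and had group means of at most 0.0467 FPKM.

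**Figure D2:**
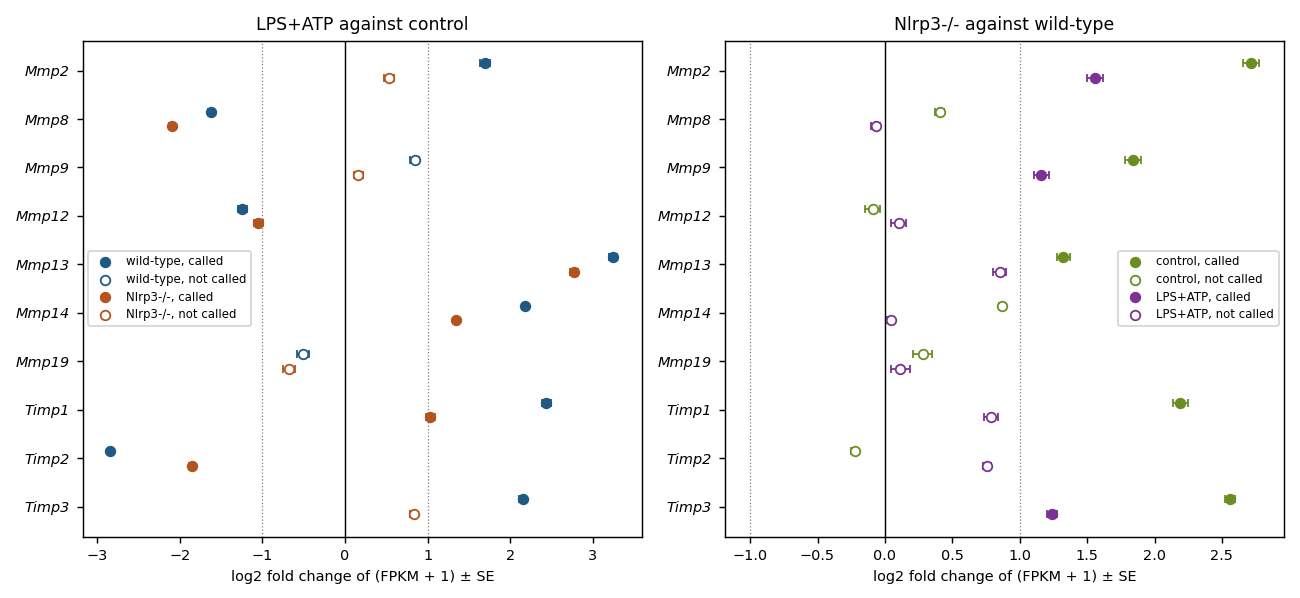
Log2 fold changes of FPKM + 1 with their SE (x axes) for the 10 genes (y axis), on the left for LPS+ATP against control in each genotype and on the right for Nlrp3-/- against wild-type in each treatment, with filled points for genes past both limits and dotted lines at -1 and 1. Stimulation effects run from -2.84 (Timp2) to 3.24 (Mmp13) in wild-type BMDMs, and the genotype effects of Mmp2, Mmp9, Mmp13, Mmp14, Timp1 and Timp3 are smaller with LPS+ATP than in control.

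Because FPKM is per length, the members could also be read as parts of a sum in each library. The 7 MMP genes summed to between 481 and 492 FPKM in wild-type control, 566 and 584 FPKM in wild-type LPS+ATP, 682 and 709 FPKM in Nlrp3-/- control and 838 and 848 FPKM in Nlrp3-/- LPS+ATP libraries. The makeup of that sum changed more than its size. Mmp8 made up 54.3% ± 0.851 (SD, n = 3) of it in wild-type control and 14.7% ± 0.140 (SD, n = 3) with LPS+ATP, and 50.2% ± 0.686 (SD, n = 3) and 9.58% ± 0.283 (SD, n = 3) in Nlrp3-/- BMDMs. Mmp13 went from 5.18% ± 0.374 (SD, n = 3) to 42.7% ± 0.368 (SD, n = 3) in wild-type and from 9.25% ± 0.208 (SD, n = 3) to 52.7% ± 0.782 (SD, n = 3) in Nlrp3-/- BMDMs. Thus the leading collagenase transcript was Mmp8 in all control libraries and Mmp13 in all stimulated libraries.

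Among the inhibitors, Timp2 held 82.9% ± 1.11 (SD, n = 3) of the summed FPKM in wild-type control and 10.6% ± 0.584 (SD, n = 3) with LPS+ATP. Timp1 held 15.01% ± 1.09 (SD, n = 3) and 79.0% ± 0.551 (SD, n = 3). In Nlrp3-/- control BMDMs the pair stood level, with Timp2 at 45.5% ± 1.54 (SD, n = 3) and Timp1 at 45.1% ± 1.40 (SD, n = 3), and with LPS+ATP Timp1 held 75.9% ± 0.595 (SD, n = 3). The ratio of summed MMP to summed TIMP FPKM was between 2.15 and 2.24 in wild-type control libraries, 2.41 and 2.54 in wild-type LPS+ATP libraries, 2.00 and 2.02 in Nlrp3-/- control libraries and 1.95 and 2.07 in Nlrp3-/- LPS+ATP libraries. Both Nlrp3-/- groups overlapped, the wild-type groups lay above them and apart from each other, and no test was made of this ratio, which concerns transcripts and not active enzyme.

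**Figure D3:**
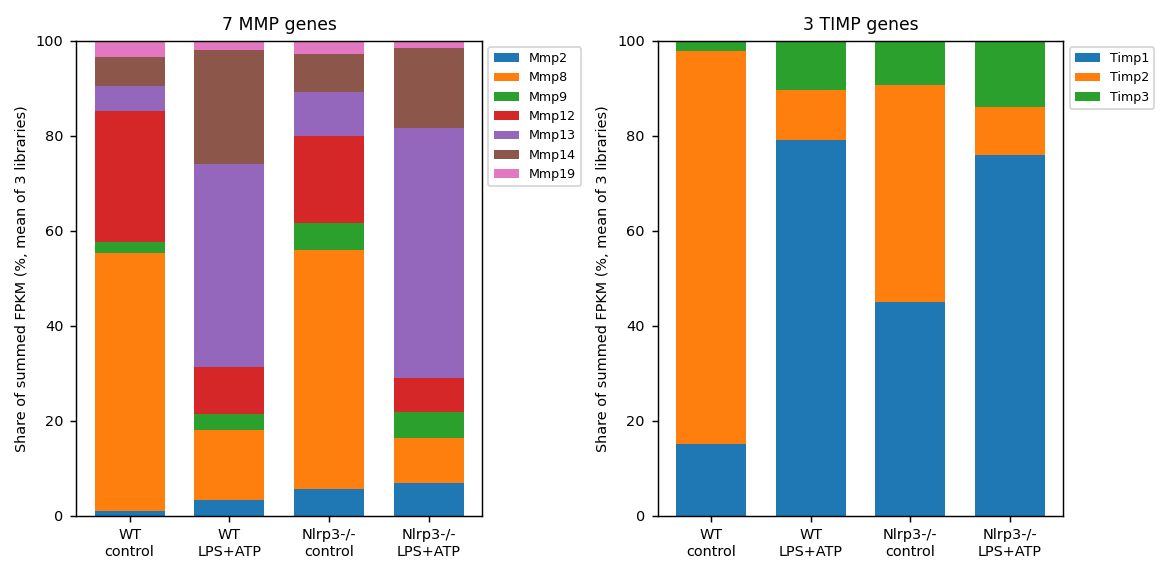
Share of each gene in the summed FPKM of the 7 MMP genes (left) and of the 3 TIMP genes (right), in percent on a linear axis, as means of 3 libraries for the 4 groups. Mmp8 gives way to Mmp13 and Mmp14, and Timp2 gives way to Timp1, with LPS+ATP in both genotypes, while Timp1 already holds 45.1% of the TIMP sum in Nlrp3-/- control BMDMs.

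Genotype was compared within each treatment. In control BMDMs, 5 of the 10 genes were higher in Nlrp3-/- than in wild-type libraries and 0 were lower by the call rule, against 6.71% of tested genes called (6.02% higher and 0.689% lower). With LPS+ATP, 3 were higher and 0 lower, against 5.05% called (4.48% higher and 0.57% lower). By adjusted p alone 9 and 6 of the 10 passed, beside 47.8% and 48.5% of tested genes, and the libraries of the genotypes did not overlap for 10 and 7 of them, beside 56.0% and 57.9%. The median log2 fold change of the 10 genes was 1.10 in control and 0.77 with LPS+ATP, beside 0.09 and 0.11 over all tested genes. After median-ratio scaling 5 and 2 of the 10 genes were higher and 0 lower, and over all genes 760 higher and 87 lower in control became 571 and 146, while 565 higher and 72 lower with LPS+ATP became 430 and 125. These comparisons share their libraries with those of stimulation.

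The 3 genes called in both treatments were Mmp2, Mmp9 and Timp3. Mmp2 had the largest difference, 7.63-fold higher in Nlrp3-/- control BMDMs (log2 fold change 2.72 ± 0.06 SE, adjusted p = 3.37e-11 by limma) and 3.04-fold higher with LPS+ATP (log2 fold change 1.56 ± 0.06 SE, adjusted p = 3.83e-09 by limma). Timp3 was 6.93-fold higher in control (log2 fold change 2.56 ± 0.04 SE, adjusted p = 2.38e-12 by limma) and 2.42-fold higher with LPS+ATP (log2 fold change 1.24 ± 0.04 SE, adjusted p = 1.12e-09 by limma). Mmp9 was 3.82-fold higher in control (log2 fold change 1.84 ± 0.06 SE, adjusted p = 5.57e-10 by limma) and 2.30-fold higher with LPS+ATP (log2 fold change 1.16 ± 0.06 SE, adjusted p = 3.42e-08 by limma). The latter was 0.95 and not called after median-ratio scaling.

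Timp1 and Mmp13 were called in control only, and whether their genotype effect differed between treatments is given by the interaction further on. Timp1 was 4.67-fold higher in Nlrp3-/- control BMDMs (log2 fold change 2.19 ± 0.05 SE, adjusted p = 8.06e-11 by limma), and its log2 fold change with LPS+ATP was 0.79 ± 0.05 (SE, adjusted p = 4.02e-07 by limma). Mmp13 was 2.56-fold higher in control (log2 fold change 1.32 ± 0.05 SE, adjusted p = 1.37e-09 by limma), with a log2 fold change of 0.85 ± 0.05 (SE, adjusted p = 6.60e-08 by limma) with LPS+ATP. Mmp14 stayed under the fold limit in control (log2 fold change 0.87 ± 0.02 SE, adjusted p = 1.51e-10 by limma). With LPS+ATP its log2 fold change was 0.04 ± 0.02 (SE, adjusted p = 0.164 by limma), and after median-ratio scaling it turned to -0.18 (adjusted p = 0.000166 by limma).

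The other 4 genes were not called in either treatment. Timp2 had log2 fold changes of -0.23 ± 0.03 (SE, adjusted p = 6.22e-05 by limma) in control and 0.76 ± 0.03 (SE, adjusted p = 4.05e-09 by limma) with LPS+ATP. Mmp8 had 0.40 ± 0.03 (SE, adjusted p = 1.96e-06 by limma) in control and -0.07 ± 0.03 (SE, adjusted p = 0.125 by limma) with LPS+ATP. The log2 fold changes of Mmp12 were -0.09 and 0.10 and those of Mmp19 were 0.28 and 0.11 in control and with LPS+ATP, and the values with LPS+ATP turned to -0.11 and -0.09 after median-ratio scaling.

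The interaction of genotype and stimulation asks whether the change with LPS+ATP differed between genotypes. It was called for 3 of the 10 genes, all negative, against 2.15% of tested genes (0.721% positive and 1.43% negative). These were Timp1 (-1.41 ± 0.08 SE, adjusted p = 4.55e-07 by limma), Timp3 (-1.32 ± 0.06 SE, adjusted p = 1.00e-07 by limma) and Mmp2 (-1.16 ± 0.08 SE, adjusted p = 3.17e-06 by limma). The term compares ratios, so it means a smaller fold change in Nlrp3-/- BMDMs, whose control levels of these 3 genes were higher. It does not mean a smaller rise in FPKM. By adjusted p alone 8 of the 10 genes passed, beside 27.7% of tested genes, the further ones being Timp2 (0.98), Mmp14 (-0.83), Mmp9 (-0.68), Mmp8 (-0.47) and Mmp13 (-0.47). Mmp12 (0.19 ± 0.08 SE, adjusted p = 0.0950 by limma) and Mmp19 (-0.17 ± 0.10 SE, adjusted p = 0.254 by limma) did not pass.

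Markers of other cell types differed between the genotypes as well. Of 10 fibroblast markers, 7 were called higher in Nlrp3-/- BMDMs in control and 7 with LPS+ATP, beside 6.71% and 5.05% of all tested genes called. By adjusted p alone all 10 passed, as higher, in both treatments, beside 47.8% and 48.5% of tested genes in either direction. Of the 10, 0 were listed at 0 in all libraries. Their summed FPKM was 119 to 121 in wild-type control, 151 to 152 in wild-type LPS+ATP, 871 to 889 in Nlrp3-/- control and 717 to 722 in Nlrp3-/- LPS+ATP libraries. Col1a1 was the main part of that sum, with means of 71.2, 81.8, 652 and 508 FPKM in the same order of groups. Col1a1 (log2 fold change 3.18 in control, adjusted p = 6.10e-15 by limma), Postn (2.95, adjusted p = 6.43e-13 by limma) and Col5a2 (2.64, adjusted p = 4.85e-13 by limma) led the 10 on the log2(FPKM + 1) scale. As ratios of means in control, Postn was 11.98-fold, Col1a1 9.16-fold, Thy1 8.29-fold and Col5a2 6.55-fold higher, Thy1 at group means of at most 1.45 FPKM. Mmp2, Mmp9, Mmp13, Timp1 and Timp3 were higher in the same control libraries as these markers, and the markers' part in those differences was not tested. In bulk libraries, fewer cells of a type and less RNA per cell cannot be told apart.

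Neutrophil markers bear on Mmp8 and Mmp9, which neutrophils and their precursors store in granules. Of 10 such markers 9 were tested, Ly6g having a group mean of at most 0.548 FPKM. In Nlrp3-/- BMDMs 8 were called higher in control and 5 with LPS+ATP, beside 6.71% and 5.05% of all tested genes called. By adjusted p alone all 9 passed in both treatments, beside 47.8% and 48.5% of tested genes. The granule enzyme genes Mpo (log2 fold change 4.14), Elane (3.70) and Prtn3 (3.31) led in control. With LPS+ATP, 6 were called lower in wild-type and 7 in Nlrp3-/- BMDMs, beside 11.2% and 8.21% of all tested genes. The summed FPKM of the 10 was 336 to 372 in wild-type control, 110 to 127 in wild-type LPS+ATP, 1822 to 1875 in Nlrp3-/- control and 492 to 523 in Nlrp3-/- LPS+ATP libraries. Its largest parts were S100a9, S100a8 and Ngp, with means of 862, 379 and 370 FPKM in Nlrp3-/- control. Mmp8 fell with stimulation in the same libraries, while its level in Nlrp3-/- control was 1.33 times that in wild-type control. Among stimulated libraries the genotypes overlapped for Mmp8 (means 84.8 FPKM for wild-type, 80.8 FPKM for Nlrp3-/-), while their marker sums were apart. Mmp9 was higher in Nlrp3-/- libraries, as the marker sum was, but it stood higher with LPS+ATP, where that sum was lower. The wild-type mean of Mmp9 was 10.6 in control and 19.7 FPKM with LPS+ATP, and its Nlrp3-/- mean was 40.3 and 45.2 FPKM. The markers' part in Mmp8 and Mmp9 was not tested.

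Of 7 osteoclast markers, 5 were tested and only Acp5, tartrate-resistant acid phosphatase, was called, as higher in Nlrp3-/- BMDMs (log2 fold change 1.36 in control and 1.03 with LPS+ATP). Of all tested genes, 6.71% and 5.05% were called in these comparisons. By adjusted p alone 3 and 4 of the 5 passed, in either direction, beside 47.8% and 48.5% of tested genes. As ratios of means, Dcstamp was 2.58-fold and 3.09-fold higher, at group means of at most 1.25 FPKM. Atp6v0d2 was at 1.28 and 0.689 times the wild-type level. The summed FPKM of the 7 was 142 to 146 in wild-type control and 138 to 141 with LPS+ATP, and 195 to 203 and 208 to 213 in the same Nlrp3-/- treatments. Endothelial markers summed to at most 12.6 FPKM in any library, with Cdh5 and Pecam1 of 3 tested called higher in Nlrp3-/- control BMDMs, beside the same 6.71%. Mast cell markers summed to at most 3.72 FPKM, and Mcpt4 and Tpsb2 were listed at 0 in all libraries. All 8 macrophage markers summed to 19974 to 21159 FPKM in wild-type control and 11793 to 11862 FPKM with LPS+ATP, and to 19071 to 19319 and 11118 to 11366 FPKM in Nlrp3-/- BMDMs. That sum was carried by Lyz2, lysozyme, which was between 17722 and 18839 FPKM in wild-type control, 9451 and 9500 FPKM in wild-type LPS+ATP, 17533 and 17785 FPKM in Nlrp3-/- control and 9212 and 9442 FPKM in Nlrp3-/- LPS+ATP libraries. The other 7 macrophage markers, summed apart after the data were seen, gave 2252 to 2320 FPKM in wild-type control and 2330 to 2362 FPKM with LPS+ATP, and 1520 to 1538 and 1906 to 1925 FPKM in Nlrp3-/- BMDMs. The sum without Lyz2 was thus not lower with LPS+ATP, was lower in Nlrp3-/- than in wild-type libraries of either treatment, and was not tested. Its members did not move alike. Cd14 and Fcgr1 rose with LPS+ATP in both genotypes, and Adgre1 went from 237 to 460 FPKM in wild-type and from 184 to 327 FPKM in Nlrp3-/- BMDMs. Cd68 went from 1450 to 814 FPKM and from 877 to 620 FPKM, and Mertk from 32.4 to 18.8 FPKM and from 34.1 to 16.7 FPKM. Csf1r went from 253 to 178 FPKM in wild-type and from 164 to 176 FPKM in Nlrp3-/- BMDMs.

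**Figure D4:**
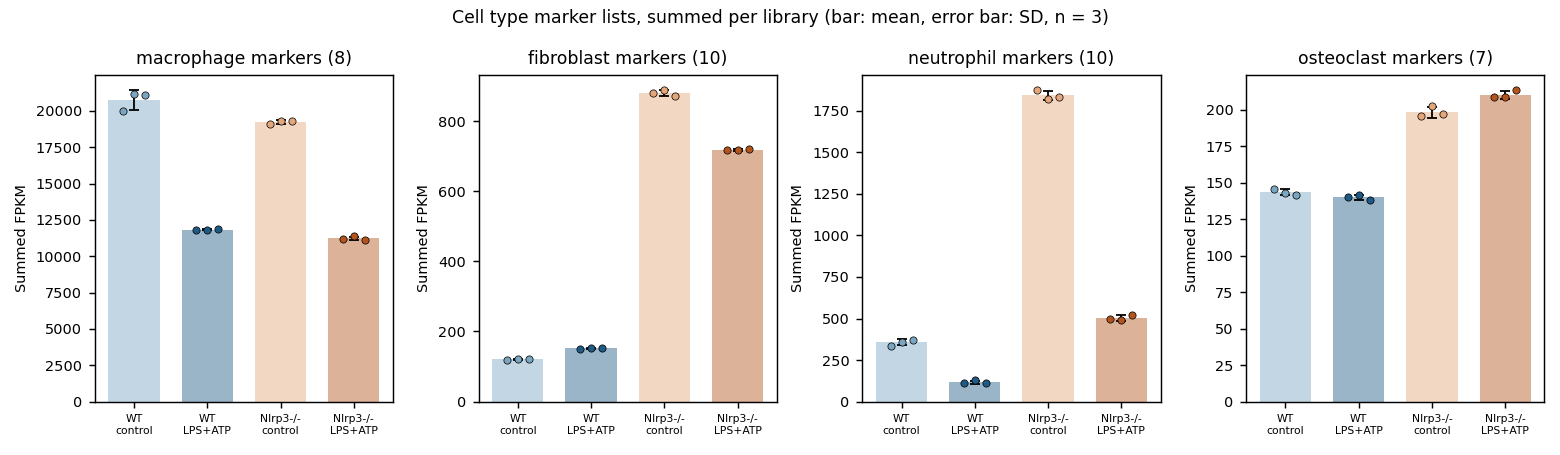
Summed FPKM (y axes, linear, each from 0) of 8 macrophage, 10 fibroblast, 10 neutrophil and 7 osteoclast markers in the 4 groups, where points are libraries, bars group means and error bars SD (n = 3). Fibroblast and neutrophil sums stand higher in Nlrp3-/- than in wild-type libraries of the same treatment, and neutrophil sums stand lower with LPS+ATP in both genotypes, as do macrophage sums, of which Lyz2 is the main part and which without Lyz2 are not lower with LPS+ATP.

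Of 17 other MMP and TIMP genes, 6 passed the filter, and Timp4 was at most 0.00846 FPKM in any library. By the call rule 1 rose and 1 fell with LPS+ATP in wild-type BMDMs, and 1 rose and 1 fell in Nlrp3-/- BMDMs, beside 19.4% and 14.8% of all tested genes called. By adjusted p alone all 6 passed in both genotypes, in either direction, beside 76.4% and 74.3% of tested genes. Mmp25 was not called, and its mean rose 4.12-fold in wild-type (0.337 to 1.39 FPKM) and 1.82-fold in Nlrp3-/- BMDMs (0.591 to 1.07 FPKM). Mmp3, stromelysin-1, rose in wild-type (log2 fold change 1.72 ± 0.06 SE, adjusted p = 1.91e-10 by limma) and in Nlrp3-/- BMDMs (1.74 ± 0.06 SE, adjusted p = 2.31e-10 by limma), from 5.54 to 20.5 and from 7.75 to 28.2 FPKM on average. Mmp27 fell in wild-type BMDMs (log2 fold change -1.63 ± 0.10 SE, adjusted p = 4.51e-08 by limma). Mmp11 was called in Nlrp3-/- BMDMs only (-1.03 ± 0.09 SE, adjusted p = 1.60e-06 by limma, and -0.58 in wild-type). Its mean fell to 0.359 times control in wild-type and 0.368 times in Nlrp3-/- BMDMs. Mmp23 was higher in Nlrp3-/- BMDMs in both treatments (log2 fold change 1.80 in control and 1.59 with LPS+ATP). Mmp11 was called so in control only (1.36), with ratios of means of 4.07 in control and 4.17 with LPS+ATP. Beside these, 6.71% and 5.05% of all tested genes were called in control and with LPS+ATP.

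Mmp13, Mmp12 and Mmp8 lie in a cluster on chromosome 9 that holds 10 MMP genes within 427 kb on GRCm38, in the order Mmp13, Mmp12, Mmp1b, Mmp3, Mmp1a, Mmp10, Mmp8, Mmp27, Mmp20 and Mmp7. Its 6 tested genes did not all go the same way with LPS+ATP. Mmp13 and Mmp3 rose in both genotypes, while Mmp12, which lies between them, and Mmp8 fell in both. Mmp10, stromelysin-2, had log2 fold changes of 0.89 in wild-type and 0.93 in Nlrp3-/- BMDMs, under the fold limit. Its mean rose 3.10-fold (0.693 to 2.15 FPKM) in wild-type and 2.77-fold (1.03 to 2.84 FPKM) in Nlrp3-/- BMDMs. Mmp27, next to Mmp8, fell in wild-type BMDMs and had a log2 fold change of -0.72 in Nlrp3-/- BMDMs.

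**Figure D5:**
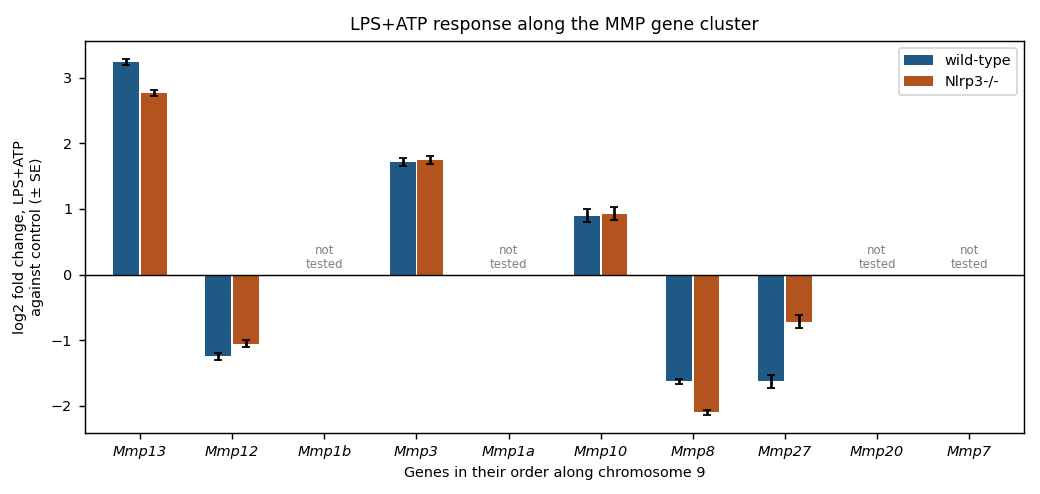
Log2 fold change of FPKM + 1 with LPS+ATP (y axis, bars from 0 with SE) of the 6 tested genes of the chromosome 9 MMP cluster in wild-type and Nlrp3-/- BMDMs, with the 10 genes in chromosomal order and not to distance. Mmp13, Mmp3 and Mmp10 lie above 0 and Mmp12, Mmp8 and Mmp27 below 0 in both genotypes.

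Promoter sequences of 3 of these neighbours are shown because Mmp13 rose where Mmp12 and Mmp8 fell. RefSeq promoter windows (GRCm38.p6, 250 bases before to 50 after a start site) matched 7 of the 10 genes with 8 windows. They were searched on both strands for TGANTCA, the core to which AP-1 factors bind, and for an NF-kB core of 3 G, any 2 letters, 2 T, any letter and 2 C. TGANTCA was found in 2 of the 8 windows, TGACTCA 35 bases before the start of Mmp13 and TGAGTCA 44 bases before the second start of Mmp12, and 7.81% of all 32851 windows held it. The NF-kB core was found in 0 of the 8, and 4.79% of all windows held it. The 250 bases before the start of Mmp13 (chr9:7272264-7272513), of the second start of Mmp12 (chr9:7347124-7347373) and of Mmp8 (chr9:7558179-7558428), all on the plus strand, are given 5′ to 3′ with the matches to TGANTCA in capitals.
Mmp13: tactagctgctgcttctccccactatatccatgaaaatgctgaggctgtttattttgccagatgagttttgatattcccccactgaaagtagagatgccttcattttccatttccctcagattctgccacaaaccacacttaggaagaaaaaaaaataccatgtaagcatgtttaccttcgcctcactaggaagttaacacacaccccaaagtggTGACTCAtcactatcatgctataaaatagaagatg
Mmp12: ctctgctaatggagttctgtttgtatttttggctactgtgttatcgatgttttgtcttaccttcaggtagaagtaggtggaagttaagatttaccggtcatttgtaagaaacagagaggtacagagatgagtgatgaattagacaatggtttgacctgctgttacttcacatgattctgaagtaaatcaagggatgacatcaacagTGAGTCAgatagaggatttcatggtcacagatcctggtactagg
Mmp8: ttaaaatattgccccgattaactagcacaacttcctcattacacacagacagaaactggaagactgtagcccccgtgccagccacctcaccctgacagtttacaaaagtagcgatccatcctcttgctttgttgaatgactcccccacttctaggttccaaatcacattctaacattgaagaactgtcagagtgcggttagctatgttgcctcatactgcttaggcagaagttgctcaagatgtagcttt
The motif thus stood before one gene that rose and one that fell, and these matches describe letters and not binding.

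Genes that activate, bind or remove MMPs were read from a list of 22, of which 18 passed the filter. By the call rule 4 rose and 3 fell with LPS+ATP in wild-type BMDMs, and 5 rose and 1 fell in Nlrp3-/- BMDMs, beside 19.4% and 14.8% of all tested genes called. Serpinb2, which encodes an inhibitor of plasminogen activators upstream of MMP activation, rose in both genotypes (log2 fold changes 4.82 in wild-type and 3.40 in Nlrp3-/-). Lcn2, which the paper used as a neutrophil marker in its single-cell data, rose from 9.96 to 218 FPKM in wild-type (log2 fold change 4.32 ± 0.05 SE, adjusted p = 1.37e-14 by limma) and from 43.2 to 208 FPKM in Nlrp3-/- BMDMs (2.24 ± 0.05 SE, adjusted p = 3.28e-12 by limma). Furin, which cleaves the propeptide of MMP14, had log2 fold changes of -0.20 and 0.06. Lrp1, the receptor that clears MMP and TIMP proteins, fell in both (-1.17 and -1.07).

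Between genotypes, 7 of the 18 were higher in Nlrp3-/- control BMDMs and 2 with LPS+ATP, and 0 were lower by the call rule, beside 6.71% and 5.05% of all tested genes called. Thbs2, thrombospondin 2, which binds MMP2, was higher in both treatments (log2 fold changes 2.35 and 2.49), as was Plat, tissue plasminogen activator (1.21 and 1.14). The interaction was called and negative for 3 of the 18, among them Lcn2 (-2.08) and Serpinb2 (-1.41), beside 2.15% of all tested genes called (1.43% negative). The MMP inhibitor gene Reck did not pass the filter, with group means between 0.189 and 1.16 FPKM.

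Matrix proteins that MMPs cut were read from a list of 18, of which 17 passed the filter and 3 are also among the fibroblast markers. Of these 15 were higher in Nlrp3-/- BMDMs in control and 13 with LPS+ATP, and 0 were lower by the call rule, beside the same 6.71% and 5.05%. Their median log2 fold change was 2.02 in control and 1.75 with LPS+ATP. Col1a1, Col1a2 and Col5a1 led in control, with log2 fold changes of 3.18, 2.84 and 2.84. Spp1, osteopontin, had a log2 fold change of -0.76 in control, under the fold limit. With LPS+ATP Vcan, versican, was the 1 gene of the list past the fold limit in wild-type BMDMs (log2 fold change 1.62 ± 0.05 SE, adjusted p = 3.82e-11 by limma). There 15 of 17 had an adjusted p under 0.05, as did 76.4% of all tested genes, of which 19.4% were called. In turn 0 of 17 were called by limma in Nlrp3-/- BMDMs, where 13 had an adjusted and 13 an unadjusted p under 0.05. Of all tested genes, 14.8% were called there and 74.3% had an adjusted p under 0.05.

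For each of the 10 genes, the tested genes with the most similar pattern over the 12 libraries were found by Pearson's r of log2(FPKM + 1), as a description, since the 4 group means set most of r. Tgfbi was most like Mmp13 (r = 0.999), followed by Nfkbiz and Phlda1 (both 0.998). Ppp1r12b, Clmp and Dst were most like Mmp14 (r from 0.998 to 0.9996), and Plod2, Myh9 and Nckap1 most like Mmp2 (r from 0.995 to 0.996). Mmp9 was nearest to Col4a2, Sulf1 and Loxl2 (r from 0.995 to 0.996), all genes of matrix assembly or modification, and Timp3 to Ctgf, Errfi1 and Me1 (r from 0.995 to 0.998). Timp1 was nearest to Plpp1, Slc6a9 and Antxr1 (r from 0.994 to 0.995), and Timp2 to Slc25a3 and Asph (both 0.999). Mmp8 was nearest to Abcg3, Ankrd28 and Anxa2 (r from 0.995 to 0.998), and Mmp12 to Fam105a, Cytip and Calcoco1 (r from 0.997 to 0.998). Mmp19 had the lowest values, with Rps27, Bptf and Ssh2 between 0.983 and 0.988.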

How the data were processed

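The authors deposited 1 table of FPKM values for genes by libraries. It came from total RNA extracted with Trizol and prepared with an Illumina TruSeq kit. The submitters' processing notes name GRCm39 and DESeq2 1.24.0, and the aligner, counter, annotation and strand setting are not given in the sources used here. FPKM carries no read counts, so no count test was run, the depth in reads is unknown, and scaling between libraries is that of FPKM.

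From these values, the 12622 of 55335 genes that reached 1 FPKM in 3 or more libraries entered a limma 3.58.1 fit of log2(FPKM + 1) in R 4.3.3, with a variance trend and Benjamini-Hochberg adjustment over all of them. Groups came from the sample labels, and no libraries of a group held identical values. Other steps used Python 3.11.15, numpy 2.4.6, pandas 2.3.3 and matplotlib 3.10.9. The fit was tested on simulated data.

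The 10 genes and all lists (other MMP and TIMP genes, MMP activation and control, ADAM and ADAMTS metalloproteinases, matrix substrates, and macrophage, fibroblast, neutrophil, osteoclast, endothelial and mast cell markers) were chosen with earlier results of these data known. Genes named were the 10 and, in each list and comparison, the called genes among the 3 with the largest changes whose libraries did not overlap. The 3 genes most like each of the 10 were named too, as were Nlrp3 and the sex-linked genes as checks. Other list genes (Csf1r, Cd68, Adgre1, Lyz2, Mertk, Furin, Lrp1, Reck, Spp1, Mmp10, Mmp25, Ly6g, Timp4, Mcpt4, Tpsb2, Thy1, Dcstamp, Adamts9, Adam17 and Adam10) were named after their values were seen. Of the gene identifiers, 55154 are in GENCODE M21, which gave positions on GRCm38 and overlaps, and blastn 2.17.0+ searched its transcripts for near copies at 95% identity and found, for the 10 genes, no others than those of the overlapping Tmem198b and Syn3. Some genes that this rule names are not reported here.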

Additional observations from a re-analysis of the deposited data

Results flagged for a closer look

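The change with LPS+ATP differed between the genotypes, by the interaction term of the limma fit at an adjusted p under 0.05, for 8 of the 10 genes. The terms (Nlrp3-/- minus wild-type, on the log2 scale) were -1.41 for Timp1, -1.32 for Timp3, -1.16 for Mmp2, -0.83 for Mmp14, -0.68 for Mmp9, -0.47 for Mmp8, -0.47 for Mmp13 and 0.98 for Timp2. For Timp1, Timp3, Mmp2, Mmp14, Mmp9 and Mmp13 the negative term stood beside a smaller positive log2 fold change in Nlrp3-/- BMDMs. For Mmp8 it stood beside a larger fall, and for Timp2 the positive term stood beside a smaller fall. Fibroblast and neutrophil marker sums differed between the genotypes in the same libraries, and donor sex and the supplier named in the methods went with genotype. The part of any of these in the terms was not tested or cannot be told apart. Groups of 3 libraries were too small to look for single libraries that stand apart.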

How the results depend on the processing

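Of 750 values of the 10 genes under alternatives (a pseudocount of 0.1, no filter or FPKM of at least 5, median-ratio scaling, TPM, the compared groups alone, no variance trend, a replicate block and each library left out), 737 kept direction and call, 5 lost and 5 gained the call, and 3 turned sign, the last being the values with LPS+ATP between genotypes after median-ratio scaling of Mmp14 (-0.18), Mmp19 (-0.0895) and Mmp12 (-0.11). Median-ratio scaling also gave the calls of Mmp9 (1.14, stimulation in wild-type) and Timp3 (1.12, stimulation in Nlrp3-/-) and took those of Mmp12 (-0.93 and -0.75) and of Mmp9 between genotypes with LPS+ATP (0.95). Timp2 gained a called interaction with a pseudocount of 0.1 (1.01), with TPM (1.02) and without wild-type LPS+ATP replicate 1 (1.00). Without the fold limit the 10 genes gave 10, 9, 6 and 8 calls for stimulation in Nlrp3-/-, genotype in control, genotype with LPS+ATP and the interaction. Over all genes, in the order stimulation in wild-type, stimulation in Nlrp3-/-, genotype in control, genotype with LPS+ATP and interaction, the counts called were 2452, 1874, 847, 637 and 271. They became 3702, 2847, 1428, 1406 and 634 with a pseudocount of 0.1 and 9641, 9383, 6035, 6124 and 3494 without the fold limit. TPM gave 1285, 1175 and 501 for the last 3, and the filter of 5 gave 515 for genotype in control. The cause of these moves was not tested, apart from the construction of the limits. Leaving out 1 library each gave 2407 to 2464, 1812 to 1875, 783 to 849, 620 to 639 and 247 to 276 genes, and 8, 5 to 6, 5, 3 and 3 to 4 of the 10. Same-numbered libraries did not deviate together (r from -0.057 to 0.053, 0 of 18 pairs over 0.1), which cannot show whether they shared a mouse or culture. The replicate block gave 2453, 1876, 847, 636 and 268 genes and changed no call of the 10. Depth in reads is unknown, and genes near 1 FPKM are the least precise.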

Other observations

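The related ADAM and ADAMTS metalloproteinases, which shed cell surface proteins or cut proteoglycans and procollagens, were read from a list of 17, of which 14 passed the filter. By the call rule 1 rose and 2 fell with LPS+ATP in wild-type BMDMs and 2 rose and 1 fell in Nlrp3-/- BMDMs, where 19.4% and 14.8% of all tested genes were called. Adam8, a leukocyte sheddase, fell in both, from 176 to 56.4 FPKM (log2 fold change -1.63 ± 0.04 SE, adjusted p = 7.66e-12 by limma) and from 128 to 38.8 FPKM (-1.69 ± 0.04 SE, adjusted p = 7.06e-12 by limma). Adamts1 passed the fold limit in wild-type only (1.27, and 0.93 in Nlrp3-/- BMDMs), as did Adamts10, which fell (-1.19 and -0.92). Adam12 (1.08, and 0.67 in wild-type) and Adam19 (1.02, and 0.10 in wild-type) passed it in Nlrp3-/- BMDMs only. As ratios of means, Adam12 rose 3.00-fold in wild-type and 2.79-fold in Nlrp3-/- BMDMs. In the same order Adamts1 rose 3.30-fold and 2.05-fold and Adamts4 3.10-fold and 2.29-fold. Adamts9, at group means of at most 1.45 FPKM, rose 5.38-fold and 2.81-fold. Adam8 fell to 0.320 and 0.304 times control and Adamts10 to 0.306 and 0.406 times. Adam17, which sheds tumour necrosis factor and is inhibited by TIMP3, had log2 fold changes of 0.67 and 0.71, and Adam10 of -0.82 and -0.78, under the fold limit.

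Between genotypes, 5 of the 14 were higher in Nlrp3-/- BMDMs in control and 6 with LPS+ATP and 0 were lower by the call rule, beside 6.71% and 5.05% of all tested genes called. Adamts4 and Adamts5, the aggrecanases, had log2 fold changes of 1.42 and 1.44 in control, and Adamts1 of 1.54. With LPS+ATP the largest were Adamts4 (1.66), Adamts2, a procollagen peptidase (1.34), and Adam12 (1.31). The interaction was called for 0 of the 14 by limma, of which 7 had an unadjusted p under 0.05, beside 2.15% of all tested genes called.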
